A study of Mus musculus with 24 samples.

Results

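Clock output transcription factors carry the daily rhythm of the molecular clock to other genes. They were taken here as a fixed list of 8 mouse genes, Dbp, Tef, Hlf, Nfil3, Ciart, Bhlhe40, Bhlhe41 and Rora, out of 30699 genes listed in the deposited tables. All 8 were found by symbol in each of the 4 tables, were recovered in each of the 24 libraries and passed the minimum mean of 10 normalized reads in every comparison. The study, whose title concerns estrogen and miR-224/452 in extracellular vesicles, sequenced polyadenylated RNA of fat from C57BL/6 mice. White fat and brown fat (labelled as adipose tissue, WAT and BAT) each came in 3 groups of 4 libraries. The mice had received antimiR-224, antimiR-452 or scramblemiR, each a locked nucleic acid oligonucleotide given under the skin in 2 injections of 25 mg/kg. AntimiR-224 and antimiR-452 are complementary to the microRNAs they are named for, and scramblemiR, the control, carries a scrambled sequence. The sources used here give no sex, age or time of day of tissue collection. The labels do not say whether libraries came from separate mice, so the p-values measure only the spread between these libraries. The deposited tables give each library a number, and 7 of the 12 numbers of white fat recur in brown fat under the same treatment, which may mark shared mice. Recovered libraries cannot be tied to those numbers, so tests between the tissues treated them as independent.

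In the molecular clock, CLOCK and ARNTL (BMAL1) bind E-box motifs and switch on genes that include their own repressors. Dbp, Tef and Hlf encode the PAR bZIP factors, activators that bind D-box motifs, and Nfil3 encodes a repressor that competes with them for the same motif. Ciart (CHRONO) binds and represses the CLOCK-ARNTL complex, Bhlhe40 and Bhlhe41 (DEC1 and DEC2) repress at E-boxes, and Rora encodes a nuclear receptor that activates Arntl through ROR elements. In fat these factors are known for rhythms of lipid and adipokine genes, and Nfil3 and Bhlhe40 also respond to hormones and other signals.

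The 5p mature microRNAs are shown first because their seeds, the bases in capitals at positions 2 to 8, set which letters a target would hold. The labels name no arm. Sequences are from RefSeq on GRCm38.p6, both on the minus strand of chromosome X, at chrX:72261085-72261105 for miR-224-5p and chrX:72262271-72262292 for miR-452-5p.
mmu-miR-224-5p: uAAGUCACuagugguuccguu
mmu-miR-452-5p: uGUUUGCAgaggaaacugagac
In the 3' UTRs of GENCODE M21, taking for each gene the transcript with the longest one, the letters that pair with the miR-224-5p seed (GTGACTT) were found in 12.7% of 20996 genes and those for miR-452-5p (TGCAAAC) in 9.68%. Among the members only Rora held either, in a 3' UTR of 9285 bases. It had 1 match for miR-224-5p, where 55.5% of 173 genes with a 3' UTR of 0.8 to 1.25 times that length held it, and 2 for miR-452-5p, where 51.4% did. The matches are printed in capitals within 8 bases on either side, on the plus strand of chromosome 9, at positions 6328, 3309 and 8877 of the 3' UTR counted from the base after the stop codon.
Rora, miR-224-5p: cattcattGTGACTTgtgtgtag
Rora, miR-452-5p, nearer: tgtgataaTGCAAACgattcagg
Rora, miR-452-5p, farther: actagaaaTGCAAACcatttatg
Such a match is a description of the letters and not a shown site. In these 3' UTRs the other 7 members held no match of these 7 letters. Among genes of similar 3' UTR length, 39.2% for Bhlhe41, 35.7% for Hlf, 26.7% for Tef and 15.2% for Bhlhe40 held the miR-224-5p letters. For Dbp, Nfil3 and Ciart, with 3' UTRs of 323, 269 and 131 bases, 3.86%, 2.62% and 0.809% did, so absence there says little. For miR-452-5p the shares ran from 1.08% for Ciart to 28.4% for Bhlhe41.

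Promoter windows were searched because several members are described as targets of the clock factors. RefSeq listed 8 windows for 7 members, each from 250 bases before to 50 after a gene start on GRCm38.p6, with 2 for Tef; Bhlhe40 was not listed. On either strand the E-box CACGTG was present in 4 of these 8 windows, in Ciart, Bhlhe41 and both Tef windows, and in 7.15% of 32851 windows of all genes. The D-box forms TTATGTAA and TTACGTAA were in 0 of the 8 and in 1.06% of all windows. The ROR element letters TAGGTCA were in 1 of the 8, Nfil3, and in 2.61% of all. The windows of Dbp and Tef are shown because these genes had like patterns in white fat, and that of Nfil3 because it differed most between the tissues. For Ciart, with 3 E-boxes, and Bhlhe41, 30 bases around the first E-box are shown. Capitals mark CACGTG, or TAGGTCA read on the other strand.
Dbp, chr7:45704997-45705296, plus strand: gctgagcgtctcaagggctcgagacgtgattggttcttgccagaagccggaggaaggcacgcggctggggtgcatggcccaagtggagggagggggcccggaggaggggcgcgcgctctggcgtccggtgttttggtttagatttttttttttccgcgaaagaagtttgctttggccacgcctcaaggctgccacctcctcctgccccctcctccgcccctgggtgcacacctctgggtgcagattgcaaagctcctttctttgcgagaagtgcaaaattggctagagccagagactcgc
Tef, chr15:81802423-81802722, plus strand: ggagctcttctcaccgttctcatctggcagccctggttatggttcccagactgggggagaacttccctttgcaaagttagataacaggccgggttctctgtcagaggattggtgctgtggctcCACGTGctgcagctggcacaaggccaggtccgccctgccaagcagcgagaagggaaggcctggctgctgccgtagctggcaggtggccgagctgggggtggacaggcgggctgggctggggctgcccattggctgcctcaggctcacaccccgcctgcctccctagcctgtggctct
Nfil3, chr13:52980990-52981289, minus strand: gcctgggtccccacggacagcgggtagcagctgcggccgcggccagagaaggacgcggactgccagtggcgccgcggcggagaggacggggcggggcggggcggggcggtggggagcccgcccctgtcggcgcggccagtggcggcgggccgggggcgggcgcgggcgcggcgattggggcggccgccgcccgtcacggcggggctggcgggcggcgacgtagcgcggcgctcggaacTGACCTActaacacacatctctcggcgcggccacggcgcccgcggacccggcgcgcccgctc
Ciart, chr3:95882327-95882356, minus strand: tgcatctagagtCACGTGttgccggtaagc
Bhlhe41, chr6:145865556-145865585, minus strand: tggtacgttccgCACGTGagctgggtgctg
The Dbp window held none of the 3 motifs, which says only that these letters are not in those 300 bases.

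Values below are reads per library divided by the authors' size factors, called normalized counts, recovered from the deposited group means. Libraries are numbered within a group by falling size factor, and the numbers are names only. Control libraries held 22175430 to 27935908 reads in genes in white fat and 16960694 to 20255777 in brown fat. Adipoq, the adipocyte hormone gene, lay at 58717 to 97874 in white and 10653 to 17637 in brown control libraries, and Ucp1, the heat-producing uncoupling protein of brown fat, at 1.04 to 180 and 43938 to 130764. For these genes each tissue is on the scale of its own antimiR-224 table, and the tissues were not scaled together here. Several libraries stood apart. In brown fat, Myh2, a skeletal muscle myosin gene, was at 6002 in antimiR-224 library 1, 42047 in antimiR-452 library 1, and 15251 and 20060 in scramblemiR libraries 1 and 2, against 2.01 to 998 in the other 8 libraries. Of 9 skeletal muscle genes, the 5 recovered in every library of the antimiR-224 table summed to 798 to 70279 across antimiR-224 libraries and 118 to 151831 across scramblemiR libraries, with none at 0. Genes with over 6000 bases of exon were also low relative to those under 2000 bases in brown fat antimiR-224 libraries 1 and 3 and antimiR-452 library 3, with log2 differences of -0.68, -0.94 and -1.43. Brown fat antimiR-452 library 2 was at -0.51 and is not counted among these below. Brown fat scramblemiR libraries lay at -0.18 to 0.25. White fat scramblemiR library 4 was at -0.28 and -0.29 on the scales of the authors' antimiR-224 and antimiR-452 tables, and white fat antimiR-452 library 1 at 0.34. The other white fat libraries lay at -0.08 to 0.15. In white fat, 8 tubule epithelium genes summed to 878 to 11485 in antimiR-224, 804 to 8435 in antimiR-452 and 389 to 1679 in scramblemiR libraries. Genes of the sperm lineage there summed to 216 to 7339, 31.1 to 434 and 15.6 to 25073 in the same order. The 8 motile cilium genes there summed to 325 to 9204, 191 to 7653 and 191 to 3013, and 6 mesothelium genes to 8044 to 26235, 2905 to 13556 and 2250 to 14853. The 9 skeletal muscle genes in white fat summed to 232 to 1402, 238 to 11621 and 346 to 862, also in that order. The 5 erythroid genes summed to 3337 to 8751 in white fat antimiR-452 libraries and 13951 to 64832 in its scramblemiR libraries, without overlap. The 4 of them recovered in the antimiR-224 table summed to 3433 to 27697 in antimiR-224 libraries and 6952 to 32642 in scramblemiR libraries. In brown fat the 5 erythroid genes summed to 2106 to 53604 in antimiR-452 and 496 to 17470 in scramblemiR libraries. The 4 recovered for antimiR-224 in brown fat summed to 525 to 25930 in its libraries and 240 to 8840 in scramblemiR libraries. The part of these in the members' values was not tested beyond leaving out the brown fat libraries, as given below.

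None of the 8 members passed the test in any inhibitor comparison. The limma test on log2(normalized count + 1), with adjustment over all genes, called 0 of 8 members and 0% of genes in each of the 4 comparisons, of 17748 genes tested for antimiR-224 and 17639 for antimiR-452 in white fat, and 14352 and 14466 in brown fat. At an unadjusted p under 0.05, 6.25% of genes for antimiR-224 and 4.47% for antimiR-452 passed in white fat, with 0 members in either. In brown fat 5.95% and 3.88% did, with Nfil3 the only member, for antimiR-224. Complete separation of the inhibitor libraries from the controls was seen for 3.53%, 1.67%, 3.91% and 3.18% of genes in the same order, and for 0 members. In the authors' deposited tables, where the adjusted p was under 0.05 for 0.00343% of genes for antimiR-224 in white fat and 0% elsewhere, the adjusted p was 1 for every member in all 4 comparisons, with unadjusted p-values from 0.176 to 0.968. Thus 0 members had a deposited p under 0.05, against 1.55%, 2.41%, 1.15% and 0.499% of the genes in the same order of comparisons. Without antimiR-452 library 4 of white fat limma called 547 genes for antimiR-452 there and 63 for its difference between tissues, and without the brown fat libraries high in Myh2 it called 9 for antimiR-224, none of them a member. Both inhibitors of a tissue share its 4 control libraries, so their values stand side by side without being independent.

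**Figure D1:**
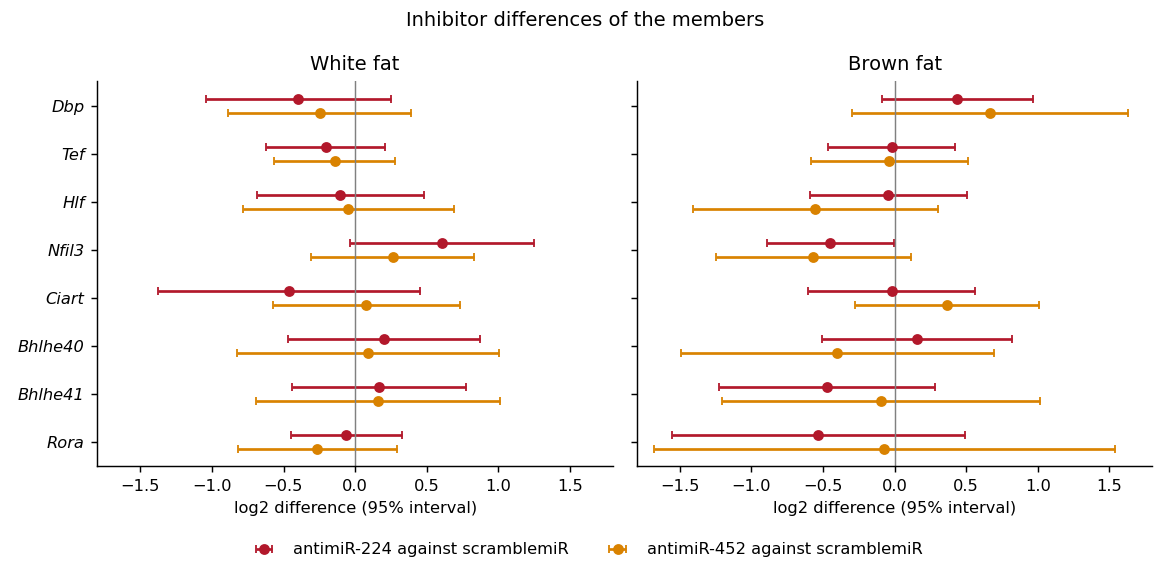
Log2 difference of each member between inhibitor and scramblemiR libraries, with its 95% interval from limma, in white fat (left) and brown fat (right); red marks antimiR-224 and orange antimiR-452. The interval of Nfil3 under antimiR-224 in brown fat, -0.89 to -0.01, is the only one that leaves out 0, before any adjustment.

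Dbp lies at chr7:45705088-45710203 on GRCm38. In white fat Dbp had 3241, 1977, 4236 and 3669.7 normalized counts with antimiR-224, 3614, 4401, 4445 and 2176 in antimiR-452 libraries, and 4881, 2911, 5819 and 3616 in scramblemiR libraries. The lowest values fell in antimiR-224 library 2 and antimiR-452 library 4, the highest in 2 controls, and all 3 groups overlapped. The log2 difference was -0.40 (SE 0.28, 95% interval -1.04 to 0.25, limma adjusted p = 0.81) for antimiR-224 and -0.25 (SE 0.28, interval -0.89 to 0.39, adjusted p = 0.998) for antimiR-452. In brown fat Dbp had 2827, 1681, 1849 and 1731 in antimiR-224 libraries, 2538, 1923, 5166 and 1167 in antimiR-452 libraries, and 1505, 2044, 1158 and 1270.2 in scramblemiR libraries. The highest value, 5166, was antimiR-452 library 3, the library lowest in long transcripts. The next highest, 2827, was antimiR-224 library 1, also low in them and high in Myh2. AntimiR-224 library 3, the next lowest in long transcripts after antimiR-452 library 3, had 1849. Dbp is among the shorter members with 2993 exon bases. The differences were 0.44 (SE 0.24, interval -0.09 to 0.97, adjusted p = 0.73) and 0.66 (SE 0.43, interval -0.30 to 1.63, adjusted p = 0.999), and the second was 0.28 without antimiR-452 library 3. Of Dbp's exon bases, 539 overlap Sphk2 on the other strand, and the sources used here do not say whether counting used strand.

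Tef, at chr15:81802421-81826863, was the steadiest member. Tef had 6271, 4789.7, 7053 and 6487 normalized counts in white fat with antimiR-224, 7014, 6524, 7321 and 5006 in antimiR-452 libraries, and 7491, 5969.9, 9148 and 5956 in scramblemiR libraries. As with Dbp, antimiR-224 library 2 and antimiR-452 library 4 were lowest and scramblemiR library 3 highest, with all groups overlapping. Its differences were -0.21 (SE 0.18, adjusted p = 0.83) and -0.14 (SE 0.19, adjusted p = 0.998) by limma. In brown fat Tef ranged from 5669 to 7743 in antimiR-224, 5458 to 7109 in antimiR-452 and 5177 to 8486 in scramblemiR libraries, and the differences were -0.02 (SE 0.20) and -0.04 (SE 0.24).

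Hlf, at chr11:90336536-90390895, had 617, 604, 623 and 495 normalized counts in white fat with antimiR-224, 757, 639, 788 and 362 in antimiR-452 libraries, and 793, 557, 912 and 380.2 in scramblemiR libraries. The antimiR-224 libraries lay close together, within the wider spread of the controls. In brown fat Hlf had 868, 741, 962 and 1032 in antimiR-224 libraries, 313, 736, 898 and 770.2 in antimiR-452 libraries, and 853, 700.3, 802 and 1499.6 in scramblemiR libraries. The lowest value was antimiR-452 library 1, the library highest in Myh2, and the highest was a control. Its largest difference was -0.55 (SE 0.38, interval -1.41 to 0.30, limma adjusted p = 0.999), for antimiR-452 in brown fat, and -0.22 without antimiR-452 library 1.

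Nfil3, the D-box repressor, at chr13:52967209-52981073, had the smallest unadjusted p of the members for antimiR-224 in both tissues and for antimiR-452 in brown fat. In white fat it had 207, 257, 111 and 183 normalized counts with antimiR-224, 197, 114, 155 and 122 in antimiR-452 libraries, and 105, 145, 93.8 and 140.1 in scramblemiR libraries. Of the 4 antimiR-224 values, 3 were above every control and the other was within them. The difference was 0.60 (SE 0.28, interval -0.04 to 1.25, unadjusted p = 0.062, limma adjusted p = 0.80) for antimiR-224 and 0.26 (SE 0.25, adjusted p = 0.998) for antimiR-452. In brown fat Nfil3 had 604, 364, 507 and 626 in antimiR-224 libraries, 831, 386, 527 and 307 in antimiR-452 libraries, and 759, 682, 756 and 621 in scramblemiR libraries. Here 3 of 4 antimiR-224 libraries were below every control, and the antimiR-452 group held both the highest and the lowest values. The differences were -0.45 (SE 0.20, unadjusted p = 0.048, limma adjusted p = 0.73) and -0.57 (SE 0.30, unadjusted p = 0.093, adjusted p = 0.999). The difference in white fat minus that in brown fat was 1.05 (SE 0.34, unadjusted p = 0.0075, adjusted p = 0.60) for antimiR-224 and 0.83 (SE 0.39, unadjusted p = 0.050, adjusted p = 0.85) for antimiR-452. That test of the tissue difference called 0 of 8 members and 0% of 16382 and 16395 genes, and at unadjusted p under 0.05 it passed 8.19% and 5.48% of genes. Dbp, at -0.83 (SE 0.38, unadjusted p = 0.045, adjusted p = 0.60) for antimiR-224, was the only other member under that unadjusted threshold.

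**Figure D2:**
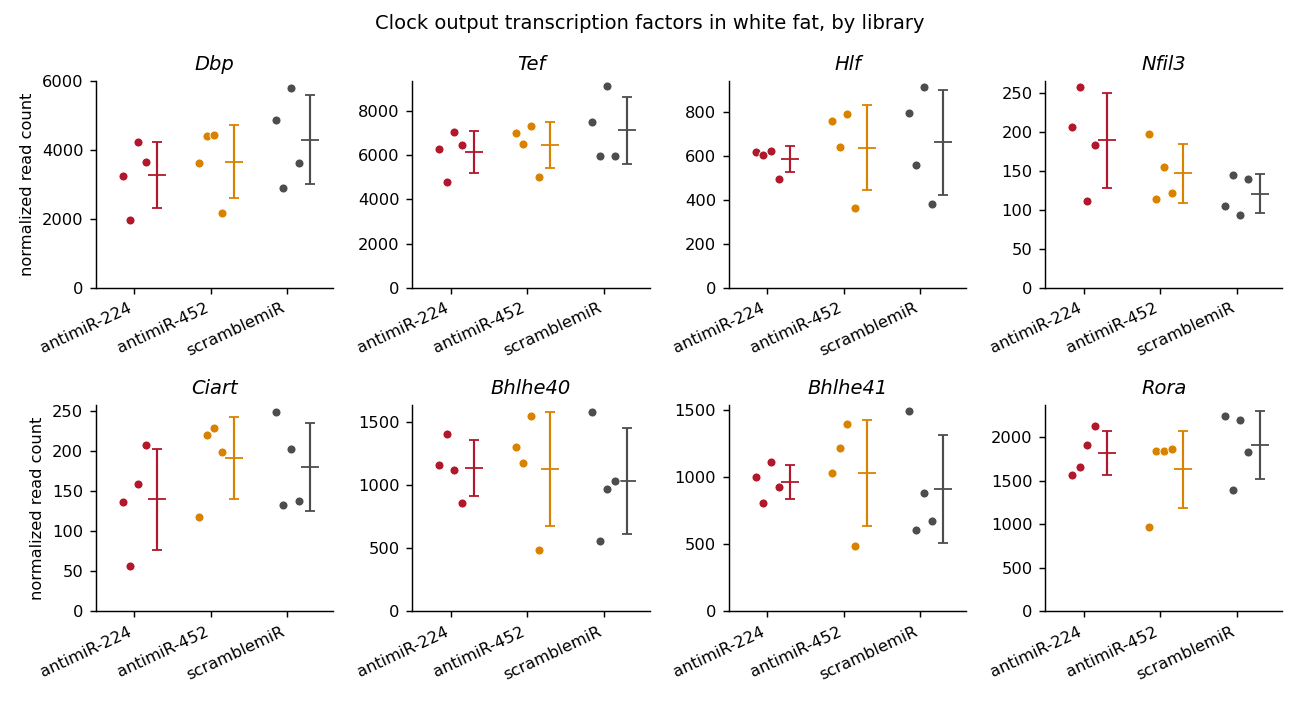
Normalized read counts of the 8 members in white fat, 1 point per library with the group mean and SD beside it, for antimiR-224, antimiR-452 and scramblemiR (4 libraries each). All groups overlap in every panel; Nfil3 has 3 of 4 antimiR-224 libraries above the controls.

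**Figure D3:**
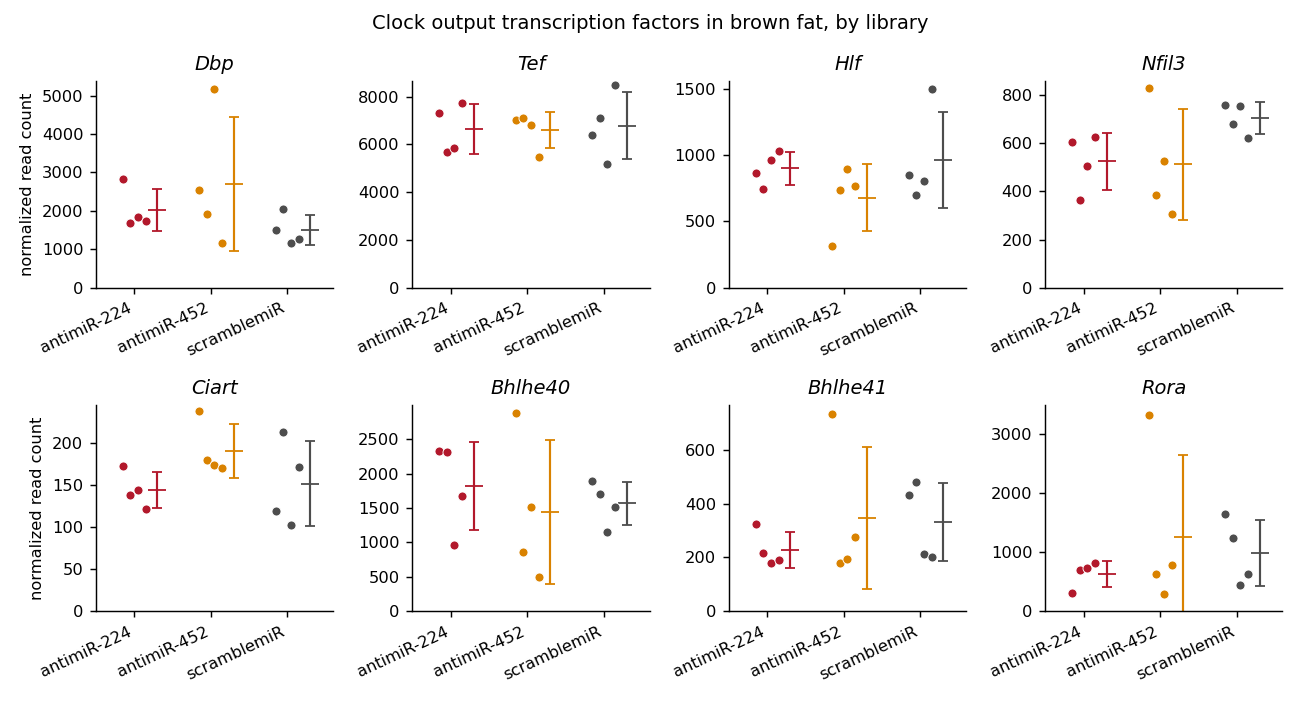
Normalized read counts of the 8 members in brown fat, drawn in the same way; the lower end of the SD bar of Rora under antimiR-452 is cut off at 0. AntimiR-452 library 1 is the highest of its group for Nfil3, Ciart, Bhlhe40, Bhlhe41 and Rora and the lowest for Hlf.

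Ciart, the repressor of the CLOCK-ARNTL complex, lies at chr3:95878503-95882251. In white fat Ciart had 136, 56.3, 158 and 207 normalized counts with antimiR-224, 117, 219.6, 228 and 199 in antimiR-452 libraries, and 248, 132, 202 and 138 in scramblemiR libraries. AntimiR-224 library 2, which was also lowest for Dbp and Tef, lay below all others. The differences were -0.46 (SE 0.40) and 0.08 (SE 0.29), with limma adjusted p = 0.83 and 0.998. In brown fat Ciart ranged from 122 to 173 in antimiR-224, 171 to 239 in antimiR-452 and 103 to 214 in scramblemiR libraries, and the differences were -0.02 (SE 0.26) and 0.37 (SE 0.28).

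Bhlhe40, at chr6:108660629-108666925, had 1161, 1405, 1118 and 857 normalized counts in white fat with antimiR-224, 1304, 1179.9, 1545 and 487 in antimiR-452 libraries, and 1581, 560.1, 968 and 1033 in scramblemiR libraries. Bhlhe41, at chr6:145858243-145865558, had 999.1, 811, 1110.4 and 931 in antimiR-224 libraries, 1033, 1215, 1400.0 and 485 in antimiR-452 libraries, and 1490.3, 603, 879.8 and 671 in scramblemiR libraries. For both, antimiR-452 library 4 was lowest and scramblemiR library 2 next, and scramblemiR library 1 highest, so the controls spanned nearly the whole range. The white fat differences were 0.20 (SE 0.29) and 0.09 (SE 0.40) for Bhlhe40 and 0.16 (SE 0.27) and 0.16 (SE 0.38) for Bhlhe41. In brown fat Bhlhe40 had 2321, 2306, 969 and 1671 in antimiR-224 libraries, 2874, 864, 1519.7 and 506 in antimiR-452 libraries, and 1888, 1709, 1147 and 1519 in scramblemiR libraries. Bhlhe41 there had 326, 216, 178 and 190.1 in antimiR-224 libraries, 733, 178, 196 and 275 in antimiR-452 libraries, and 431, 481, 213 and 201 in scramblemiR libraries. The 4 highest Bhlhe41 values were the 4 libraries high in Myh2. Without those libraries the Bhlhe41 difference was -0.09 (SE 0.26) for antimiR-224 and 0.02 (SE 0.34) for antimiR-452, against -0.47 (SE 0.33) and -0.09 (SE 0.49) with them.

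Rora, at chr9:68653786-69388246, had 1571, 1664, 1909 and 2135 normalized counts in white fat with antimiR-224, 971, 1848, 1843 and 1872 in antimiR-452 libraries, and 2241, 1397, 2195 and 1832 in scramblemiR libraries. AntimiR-452 library 1 was the lowest of all, the 3 other antimiR-452 libraries lay within the range of both other groups, and the groups overlapped. The member that holds seed matches for both microRNAs thus had differences of -0.06 (SE 0.17, interval -0.45 to 0.33, limma adjusted p = 0.95) and -0.26 (SE 0.25, interval -0.82 to 0.29, adjusted p = 0.998). In brown fat Rora had 312, 698, 728 and 819 in antimiR-224 libraries, 3329.9, 628, 295 and 783 in antimiR-452 libraries, and 1653, 1244, 440.4 and 632 in scramblemiR libraries. The 3 highest values were antimiR-452 library 1 and scramblemiR libraries 1 and 2, each with Myh2 at 15251 or more. The fourth library high in Myh2, antimiR-224 library 1, and antimiR-452 library 3, both low in long transcripts, had the 2 lowest Rora values, and Rora has 13071 exon bases. The other library low in long transcripts, antimiR-224 library 3, had 728, above 2 of its group. The brown fat differences were -0.53 (SE 0.45, interval -1.56 to 0.49, limma adjusted p = 0.76) and -0.07 (SE 0.71, interval -1.68 to 1.54, adjusted p = 0.9999). Without the libraries high in Myh2 the antimiR-224 difference was 0.50 (SE 0.24, unadjusted p = 0.061, adjusted p = 0.88). That limma fit left out scramblemiR libraries 1 and 2, the highest controls, and antimiR-224 library 1, the lowest of its group. Since antimiR-224 library 1 was also low in long transcripts, the change of sign cannot be tied to Myh2 alone. The authors' deposited table gives log2 ratios of group means of -0.63 and 0.33 for Rora in brown fat, the second opposite in sign to the difference of mean logs here. The same holds for Bhlhe41 with antimiR-452 in brown fat, at 0.05 deposited and -0.09 here. In bulk tissue fewer cells of a type and less RNA per cell cannot be told apart.

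Within groups the members varied unequally. After subtracting group means, the SD of log2(normalized count + 1) over 12 white fat libraries was 0.59 for Ciart, 0.58 for Bhlhe40, 0.53 for Bhlhe41, 0.47 for Dbp, 0.45 for Hlf, 0.40 for Nfil3, 0.34 for Rora and 0.26 for Tef, against a median of 0.29 over 13932 genes. In brown fat Rora varied most, at 1.05, above 92.3% of 11503 genes, and Tef least, at 0.24, above 10.9% of them, with a median of 0.44. These are descriptions of spread and carry no test.

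Of all members Dbp and Tef were the most alike in white fat. Across the 12 white fat libraries, with group means subtracted, Pearson's r was 0.94 and Spearman's rho 0.90 (exact permutation of libraries within groups, two-sided p = 0.0010 for r and 0.0011 for rho). Adjusted over the 20 relations computed, 10 in each tissue, these were 0.020 and 0.022, and this was the only relation past 0.05 by either. Without the 2 libraries farthest from the median of Dbp, antimiR-224 library 2 and antimiR-452 library 4, r was 0.88 (exact permutation p = 0.039, adjusted 0.22), so that it no longer passed. In that setting Nfil3 gave r of -0.78 (exact permutation p = 0.0058, adjusted 0.093). Rora gave 0.75 (exact permutation p = 0.0093, adjusted 0.093). Both had a smaller p than Tef, and no relation passed after adjustment. For Bhlhe41 and Dbp, r was 0.79 (exact permutation p = 0.0058, adjusted 0.058) and rho 0.73 (exact permutation p = 0.016, adjusted 0.10). The other members gave r of 0.66 for Ciart, 0.64 for Hlf, 0.52 for Bhlhe40, 0.35 for Rora and -0.54 for Nfil3, with exact permutation p-values of 0.038 (Ciart) to 0.32 (Rora), and 0.24 to 0.40 after adjustment. Their rho was 0.66, 0.77, 0.27, 0.25 and -0.65 in the same order, with exact permutation p-values of 0.015 (Hlf) to 0.48 (Rora). Of the clock genes outside the list, Per3 gave r of 0.62, Nr1d1 0.45 and Arntl -0.59, with exact permutation p-values of 0.063, 0.19 and 0.077. In brown fat 0 of 10 relations passed, and 4 of its 12 libraries stood apart in muscle genes, so no relation is read from its r-values. White fat libraries also differed in tubule epithelium, motile cilium, mesothelium, sperm lineage, erythroid and skeletal muscle genes. The part of these in the white fat r-values was not tested.

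Genes whose group-centred pattern was most like that of Dbp in white fat were Elane (r = 0.96), Gm11235 (0.95), Tef (0.94), A430033K04Rik (0.91) and Abraxas1 (0.90), among 13931 genes with a mean of at least 50. For Tef they were Elane (0.96), Dbp (0.94), A430033K04Rik (0.93), Zfp563 (0.89) and Fbxo32 (0.88). For Bhlhe41, Bhlhe40 (0.85) came after A830082K12Rik (0.89) and Abcg4 (0.87). Hlf was nearest to Cbx2 (0.91), Ciart to Efl1 (0.92), Nfil3 to Ppp1r14a (0.95), Bhlhe40 to Fbxo25 (0.92) and Rora to Smim15 (0.98). These values rest on 12 white fat libraries and are descriptions, chosen as the highest of all genes, with no test. The part of other cell types in them was not tested either.

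**Figure D4:**
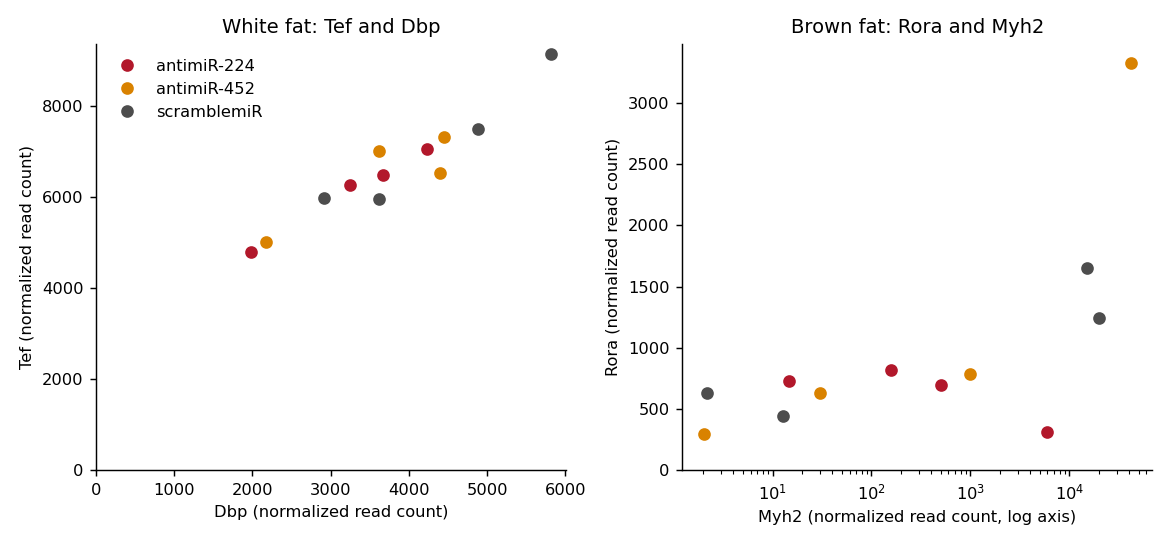
Left, Tef against Dbp in 12 white fat libraries; right, Rora against Myh2 in 12 brown fat libraries, with Myh2 on a log axis; 1 point per library, all in normalized read counts and coloured by treatment. Tef follows Dbp across all 3 groups (r = 0.94 with group means subtracted), and the 3 highest Rora values, 1244 to 3329.9, lie at Myh2 of 15251 or more.

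Of 18 core clock genes, 17 were tested in white fat and 0 were called for either inhibitor, among 0% of all genes. Arntl, the partner of CLOCK, had 141, 198, 168 and 149 normalized counts with antimiR-224, 163, 147, 91.9 and 185 in antimiR-452 libraries, and 46.9, 83.6, 61.5 and 47.1 in scramblemiR libraries. No inhibitor value overlapped the controls, as for 3.53% and 1.67% of all genes, and the differences were 1.47 (SE 0.25, unadjusted p = 0.00025, limma adjusted p = 0.80) and 1.27 (SE 0.30, unadjusted p = 0.0023, adjusted p = 0.998). Npas2, a paralogue of Clock, differed by 1.26 (SE 0.49) and 1.503 (SE 0.32), and Per3 by -0.44 (SE 0.14) for antimiR-224, all with unadjusted p under 0.05 and none called. These genes were picked for their small p. By limma 3 of 17 core clock genes for antimiR-224 and 2 of 17 for antimiR-452 were under that threshold, against 6.25% and 4.47% of all genes. In brown fat 1 of 17 and 0 of 16 were, against 5.95% and 3.88%. In brown fat Arntl had 51.9, 51.0, 35.2 and 40.8 in antimiR-224 libraries, 201, 33.0, 23.1 and 70.3 in antimiR-452 libraries, and 110.0, 114, 76.2 and 38.1 in scramblemiR libraries. The groups overlapped there, and both differences were below 0, at -0.80 (SE 0.37, limma adjusted p = 0.73) and -0.44 (SE 0.66, adjusted p = 0.999). The highest Arntl values, 201, 114 and 110.0, were antimiR-452 library 1 and scramblemiR libraries 2 and 1, each with Myh2 at 15251 or more. AntimiR-224 library 1, with Myh2 at 6002, had 51.9. The part of muscle in the brown fat Arntl differences was not tested. In brown fat 0 of 17 core clock genes were called for antimiR-224 and 0 of 16 for antimiR-452. Of 10 further genes with known daily rhythms, 9 in white fat and 8 in brown fat were tested, and 0 were called. The median difference of the 8 members was -0.08 and 0.02 in white fat and -0.03 and -0.08 in brown fat, for antimiR-224 and antimiR-452 in turn, against medians in the same order of 0.02, -0.03, -0.07 and -0.05 over all genes tested.

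Between the tissues, 4 members were lower in white fat than in brown fat controls. On counts of both control groups scaled together, limma called Nfil3, Bhlhe40, Hlf and Tef lower and none higher, where 19.9% of 16818 genes were called lower, 22.1% higher and 42% in all. The same 4 of the 8 members were separated completely between the groups, as were 41.3% of all genes. At an unadjusted p under 0.05 these 4 and Dbp passed, 5 of 8, against 50.4% of genes. The members' median difference was -0.70, against 0.08 for all genes.

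Nfil3 differed most, with 77.8, 105, 69.8 and 103 jointly scaled counts in white fat scramblemiR libraries and 1019, 902, 1019 and 844 in brown fat scramblemiR libraries. The groups did not overlap, and the lowest brown fat value was 844. The log2 difference was -3.41 (SE 0.18, interval -3.81 to -3.02, limma adjusted p = 3.05e-06). Bhlhe40 had 1169, 407, 721 and 763 in white fat and 2537, 2261, 1546 and 2065 in brown fat, a difference of -1.53 (SE 0.29, adjusted p = 0.0025). Hlf had 586, 405, 679 and 281 in white fat and 1146, 927, 1082 and 2039 in brown fat, a difference of -1.42 (SE 0.32, adjusted p = 0.0058). One brown fat library, scramblemiR 4, stood above the others for Hlf. Tef had 5537, 4338, 6807 and 4399 in white fat and 8589, 9396, 6981 and 11535 in brown fat, a difference of -0.79 (SE 0.21, adjusted p = 0.014).

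The 4 other members were not called. Dbp had 3607, 2115, 4329.6 and 2670.5 jointly scaled counts in white fat and 2022, 2704, 1562 and 1727 in brown fat, overlapping in 2 libraries of white fat, with a difference of 0.65 (SE 0.25, interval 0.08 to 1.21, limma adjusted p = 0.063). Dbp was called higher in white fat once scramblemiR library 2 of white fat (0.82, adjusted p = 0.022) or of brown fat (0.80, adjusted p = 0.037) was left out. Its sign was opposite to that of its PAR bZIP relatives Tef and Hlf; the difference between these genes was not tested. Ciart differed by -0.61 (SE 0.29, adjusted p = 0.12), Bhlhe41 by 0.61 (SE 0.37, adjusted p = 0.21) and Rora by 0.25 (SE 0.39, adjusted p = 0.63). Scaling by total reads moved the median of all genes to 0.61, and on that scale Dbp (1.17, adjusted p = 0.0019) and Bhlhe41 (1.13, adjusted p = 0.023) were called higher in white fat and Tef (-0.27, adjusted p = 0.25) was not called. Without the 2 brown fat controls high in Myh2, Dbp (0.90), Bhlhe41 (1.16) and Rora (0.96) were called higher, and Tef (-0.79, adjusted p = 0.067) was not called. Nfil3, Bhlhe40 and Hlf were called lower in white fat under both.

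**Figure D5:**
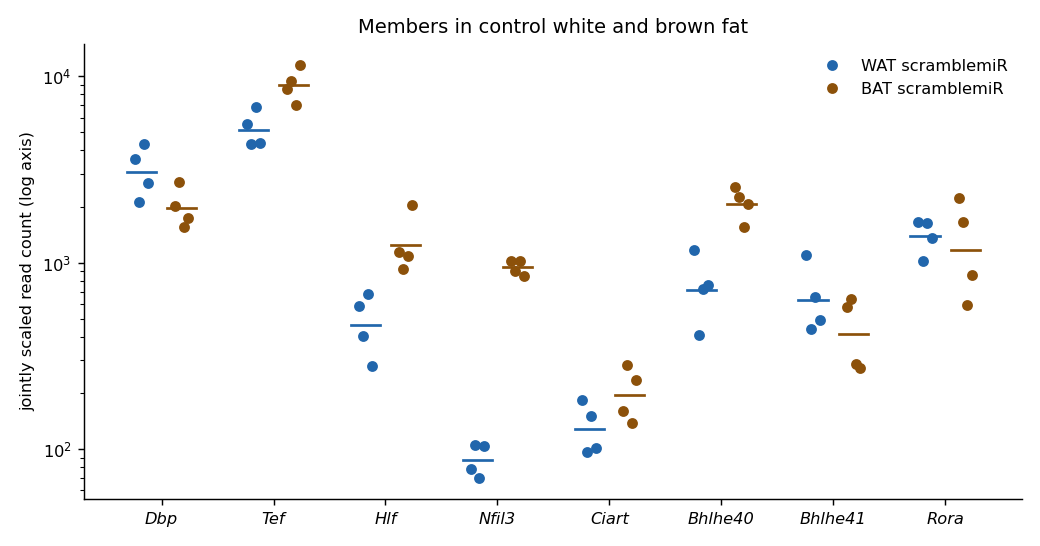
Jointly scaled read counts of the 8 members on a log axis in scramblemiR libraries of white fat (blue) and brown fat (brown), 1 point per library, 4 per tissue, with the geometric mean as a line. Nfil3, Bhlhe40, Hlf and Tef show no overlap; Nfil3 lies between 69.8 and 105 in white fat and between 844 and 1019 in brown fat.

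Per kilobase of exon, the order of the members differed between the tissues. In white fat controls the mean normalized count per kilobase was 1439 ± 433 for Dbp, 908 ± 193 for Tef, 220.1 ± 89.2 for Bhlhe40, 147 ± 29.9 for Rora, 136 ± 60.1 for Bhlhe41, 98.9 ± 35.6 for Hlf, 79.6 ± 24.4 for Ciart and 59.7 ± 12.5 for Nfil3 (SD, n = 4 each), on the scale of the authors' antimiR-224 table. The ranges of mean ± SD of neighbours in that order overlapped except for Tef and Bhlhe40. In brown fat controls it was 863 ± 176 for Tef, 499 ± 132 for Dbp, 348 ± 32.6 for Nfil3, 333 ± 67.5 for Bhlhe40, 144 ± 54.3 for Hlf, 75.9 ± 42.7 for Rora, 67.2 ± 22.4 for Ciart and 49.3 ± 21.6 for Bhlhe41. There they overlapped except for Tef with Dbp and Bhlhe40 with Hlf. Nfil3 was last in white fat, whereas in brown fat it followed Tef and Dbp. Exon length is the union over a gene's annotated exons, so a gene that uses few of them is underestimated.

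Of 17 core clock genes tested outside the members, limma called 4 lower and 1 higher in white fat than in brown fat of the controls, among 42% of all genes. Those called lower included Arntl (-1.27, SE 0.37), Per2 (-0.96, SE 0.23) and Arntl2 (-0.82, SE 0.22), and Nr1d1 (0.98, SE 0.30) was called higher. Nr1d1 encodes REV-ERBalpha, the repressor that opposes Rora at ROR elements. Of 10 rhythmic output genes, 3 (Pdk4, Usp2 and Nampt) were called lower in white fat and 1 (Tspan4) higher. Of all genes, 19.9% were called lower and 22.1% higher. With both directions together neither list stood above the 42% of all genes. Lower calls alone were above 19.9% in both lists, on few genes and without a test. Pdk4 encodes a kinase that restrains pyruvate oxidation, and its difference was -6.17 (SE 0.19).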

How the data were processed

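Polyadenylated RNA was extracted with Trizol and sequenced from a directional library kit, per the labels' protocols. DESeq 1.10.1 in R 2.15.3 and the build GRCm38.p4 are named in the submitters' processing notes; no aligner or counter is named in the sources used here. The deposited tables hold the authors' normalized signal (group mean counts divided by size factors), their linear ratio, its log2 value, and p-values with adjusted p-values. Because each mean is a sum of 4 whole reads divided by size factors, the reads per library were recovered exactly for all control genes and for 99.1% to 99.4% of genes in inhibitor groups, searched up to a mean of 12000, and checked on simulated data. Recovered libraries cannot be tied to sample titles.

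Inhibitor and control libraries were compared with limma 3.58.1 in R 4.3.3 (trended, robust variance) on log2(normalized count + 1) for genes with a mean of at least 10, with Benjamini-Hochberg adjustment over all genes and a threshold of 0.05. Fold changes on this scale understate those of low genes. Controls of both tissues were scaled together by medians of ratios for the tissue comparison. Correlations used exact permutation within groups, two-sided. Python 3.11.15, numpy 2.4.6, scipy 1.17.1, pandas 2.3.3 and matplotlib 3.10.9 were used. Named genes are the 8 members, lists of 18 core clock and 10 rhythmic output genes by counts and smallest p, and the genes most like each member, up to 5, in white fat. For brown fat they are not given, since 4 libraries stand apart. Members and lists were chosen with earlier results of these data known. Alternatives were other pseudocounts (0.5 and 5), no minimum mean or one of 50, no robust variance, scaling by total reads, and leaving out each library. Leaving out libraries high in skeletal muscle genes or low in long transcripts was chosen after seeing the data. A gene of the core clock list is not reported here.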

Additional observations from a re-analysis of the deposited data

Results flagged for a closer look

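Dixon's ratio is the gap of an extreme library to its nearest neighbour, divided by the range of the 4 libraries. Of 48 sets of 4 libraries (8 members in 6 groups), 5 held a library whose ratio exceeded Dixon's 95% critical value, where chance gives about 1 in 20. Dbp was 2827 normalized counts in antimiR-224 library 1 of brown fat, above the 1681 to 1849 of the other libraries of that group. That library is among those high in Myh2 and low in long transcripts. Ciart was 239 in antimiR-452 library 1 of brown fat, above 171 to 181. Rora was 3329.9 in the same antimiR-452 library, above 295 to 783, and Myh2 was 42047 there. Rora was 971 in antimiR-452 library 1 of white fat, below 1843 to 1872. Hlf was 495 in antimiR-224 library 4 of white fat, below 604 to 623.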

How the results depend on the processing

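No paired analysis was possible because the recovered libraries cannot be tied to the numbers in the sample titles or file headers. Reported counts were 0 in every comparison except the control tissues, with 7067 genes, and the relations with Dbp, with 1. In 40 of 43 other settings a reported 0 stayed at 0, or a count above 0 kept within 1.5 times of the reported one. The exceptions were 9 genes for antimiR-224 in brown fat without the libraries high in muscle genes, against 0; 1 gene for the tissue difference of antimiR-452 with no minimum mean, against 0; and 0 relations with Dbp without the 2 libraries farthest from its median, against 1. Leaving out 1 library gave 0 to 0 genes for antimiR-224 in white fat, antimiR-224 and antimiR-452 in brown fat, and the tissue difference of antimiR-224. It gave 0 to 547 for antimiR-452 in white fat and 0 to 63 for its tissue difference, both highest without antimiR-452 library 4 of white fat, and 5919 to 6719 for the control tissues, against 7067.

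No member's inhibitor difference passed the test in any setting, but several signs turned. Without the muscle-high libraries, brown fat differences were 0.020 for Ciart and, against -0.53, 0.50 for Rora (antimiR-224) and 0.023 for Bhlhe41 (antimiR-452). Without the libraries low in long transcripts, those for antimiR-452 were 0.093 for Bhlhe41 and 0.43 for Rora. Without the 2 farthest libraries, r with Dbp in brown fat was 0.71 for Rora and 0.49 for Arntl, against -0.22 and -0.14 over all 12. Leaving out 1 library, differences for antimiR-224 in white fat ran from -0.34 to 0.078 for Hlf, -0.059 to 0.44 for Bhlhe40, -0.0021 to 0.43 for Bhlhe41 and -0.20 to 0.023 for Rora. For antimiR-452 there they ran from -0.28 to 0.20 for Hlf, -0.052 to 0.30 for Ciart, -0.18 to 0.45 for Bhlhe40 and -0.019 to 0.49 for Bhlhe41. For antimiR-224 in brown fat they ran from -0.14 to 0.094 for Tef, -0.17 to 0.19 for Hlf and -0.19 to 0.16 for Ciart. For antimiR-452 there they ran from -0.16 to 0.083 for Tef, -0.83 to 0.0056 for Bhlhe40, -0.54 to 0.14 for Bhlhe41 and -0.74 to 0.43 for Rora. Between control tissues Rora ran from -0.077 to 0.56. The causes were not tested.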
